A study of Mus musculus with 3 samples.

Results

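miR-320, miR-484, miR-877 and miR-1224 are noncanonical miRNAs, whose hairpins are made without Drosha, the nuclear enzyme that cuts most miRNA precursors out of longer transcripts. Their entries were taken by name from small RNA catalogues of EVs isolated from mouse testis at postnatal day 7 (PND7), and 8 of the 1347 mature and hairpin entries belonged to them. The 8 entries came from 4 identifiers, miR-320-3p, miR-484, miR-877-5p and miR-877-3p, each listed once as mature and once as hairpin. No mature or hairpin entry was listed for miR-320-5p, miR-1224-5p or miR-1224-3p. A catalogue lists an entry only from 1 count upward, so an miRNA with no count and an miRNA missing from the authors' database cannot be told apart.

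The series holds 3 libraries of a single group, each from testis EVs of 10 male C57/BL6 mice at PND7, and no control group. The testes were decapsulated and dissociated with Accumax, the EVs were collected from the supernatant of the dissociated cells on an affinity column and by ultracentrifugation, and they were treated with proteinase K, PMSF and RNase A before RNA was extracted. The EVs therefore came from all cell types of the testis together, and from pooled animals. The titles call the samples treated, while their tissue label names EVs isolated from testis and no agent.

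The libraries held between 25716952 and 27939308 clean reads, 870967 to 1005836 counts on mature entries and 493345 to 612122 counts on hairpin entries. The gonadal miR-202-5p stood at 18595 to 28354 CPM (counts per 1000000 mature counts of the library), and of the 4 gonad and testis markers only miR-34c-5p had no mature count. Markers of other tissues summed to 572 to 1040 CPM for 3 muscle miRNAs, 356 to 597 for 3 erythroid miRNAs, 2.98 to 49.4 for 2 myeloid miRNAs, 1.03 to 23.9 for 2 neural miRNAs and at most 0.994 for the liver miRNA miR-122-5p. Per 1000000 hairpin counts, these markers summed to 1957 to 3203 for muscle, 1848 to 2382 for erythroid, 111 to 162 for myeloid and 1.73 to 50.6 for neural miRNAs. Their part in the values of the noncanonical miRNAs was not tested.

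In the usual pathway, Drosha releases a hairpin from a primary transcript and Dicer then cuts the hairpin into a duplex, from which a single strand enters an Argonaute protein. The miR-320 hairpin is known to be transcribed directly with its own ends and to carry the cap of an RNA polymerase II transcript, and the strand that enters Argonaute is then the 3′ arm (3p). miR-484 is likewise known to be made without Drosha. It is grouped here with miR-320 under the name capped precursors, but no cap was measured. miR-877 and miR-1224 are mirtrons, short introns that splicing and debranching turn into a Dicer substrate. Loss of Drosha or of Dicer in male germ cells is known to disturb spermatogenesis. The route by which each RNA was made was not measured in these libraries.

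Of the 4 mature entries, 3 matched by name a mature sequence of RefSeq (GRCm38.p6). They are shown here because the seed, bases 2 to 8 in capitals, sets the pairing with target mRNAs.
miR-484: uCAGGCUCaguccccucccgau
miR-877-5p: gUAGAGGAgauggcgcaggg
miR-877-3p: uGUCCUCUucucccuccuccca
Each of these seeds belonged to no other of the 1679 mature names in the RefSeq table, so no entry of the catalogues with a RefSeq sequence could add to them as a seed family. All were rich in G and C, at 63.6% for miR-484, 65.0% for miR-877-5p and 59.1% for miR-877-3p, against a median of 52.2% over the mature sequences of the table.

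The hairpins of miR-484 and of the mirtrons are shown with the mature arms in capitals.
Mir484: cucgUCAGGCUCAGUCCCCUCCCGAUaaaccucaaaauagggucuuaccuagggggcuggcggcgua
Mir877: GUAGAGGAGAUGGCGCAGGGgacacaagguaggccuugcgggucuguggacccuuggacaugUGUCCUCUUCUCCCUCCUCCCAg
Mir1224: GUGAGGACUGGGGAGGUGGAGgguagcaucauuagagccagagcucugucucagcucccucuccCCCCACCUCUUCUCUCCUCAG
The Mir877 and Mir1224 hairpins begin with GU and end with AG, the bases at the ends of spliced introns, and 2.99% of the 1005 RefSeq hairpins do so. In the GENCODE annotation of GRCm38, Mir877 lies at chr17:35960730-35960814 on the minus strand and covers an intron of Abcf1 from its first to its last base. Mir1224, at chr16:20604452-20604536 on the plus strand, likewise covers an intron of Vwa5b2 exactly. Of the 2202 annotated miRNA genes, 22 span a whole intron within 2 bases at either end, or 0.999%.
Mir484 and Mir320 do not span an intron. Mir484 lies at chr16:14159626-14159692 on the plus strand, opposite Marf1, and overlaps an annotated Marf1 exon. The hairpin has 67 bases, mature miR-484 covers bases 5 to 26, and miR-484 is therefore read from the 5′ side of the hairpin. Mir320 lies at chr14:70443510-70443591 on the plus strand, outside other annotated genes, and starts 63 bases before the start of Polr3d, a subunit gene of RNA polymerase III that is transcribed in the opposite direction.

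Together, the mature entries of the noncanonical miRNAs stood at 707, 760 and 1145 CPM in replicates 1, 2 and 3. Their mean was 871 ± 239 CPM (SD, n = 3), or 0.0871% of the mature counts. The hairpin entries summed to 2295, 2250 and 2871 CPM of the hairpin counts, the scale used for all hairpin entries, with a mean of 2472 ± 346 (SD, n = 3). miR-320-3p and miR-484 held nearly all of these counts. Of 2487 mature counts in the 3 libraries, 2474 belonged to the capped precursors and 13 to the mirtrons, a ratio of 190 with an exact binomial 95% interval from 111 to 358. Of 4167 hairpin counts, 4126 and 41 did, a ratio of 101 with an interval from 74.0 to 140. All mirtron counts came from miR-877, since no entry was listed for miR-1224. The ratios describe these members only and not mirtrons in general. The mirtron miR-1981-5p, outside the group, had 621 mature counts, against 509 for miR-484. Replicate 3 held 11 of the 13 mature and 38 of the 41 hairpin counts of the mirtrons, and without it the ratios were 689, with an interval from 190 to 5695 on 2 mirtron counts, and 835, with an interval from 286 to 4053 on 3. The intervals treat the pooled reads as independent, so they cover counting error only and not the variation between libraries. PCR copies were not told apart. Within the libraries, the log2 ratio of mature counts, with 1 added to each, was 7.92 ± 1.38 (SD, n = 3) and above 0 in 3 of 3 libraries (two-sided exact sign-flip test over libraries, p = 0.25, below which 3 libraries cannot go). Replicate 1 held no mature mirtron count, so its log2 ratio of 9.27 depends on the count added.

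miR-320-3p was the most abundant of these miRNAs. Its mature entry had 361 counts in replicate 1, 569 in replicate 2 and 1035 in replicate 3. These counts correspond to 414, 566 and 1071 CPM, so that replicate 3 lay above the others. The mean was 684 ± 344 CPM (SD, n = 3), rank 85 of 604 mature entries. The exact 95% intervals of the libraries, which cover counting error only, ran from 373 to 460, from 520 to 614 and from 1007 to 1138 CPM. The hairpin entry of miR-320-3p had 887, 1205 and 1533 counts, or 1798, 1969 and 2654 CPM of the hairpin counts. Its mean was 2140 ± 453 (SD, n = 3), rank 66 of 743 hairpin entries. Replicate 3 was again the highest, and the intervals of replicates 1 and 2 were 1682 to 1920 and 1859 to 2083. Among all entries with at least 10 counts in every library, 31.2% of the mature and 30.6% of the hairpin entries were highest in replicate 3.

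For miR-320, only the 3p arm, which the capped hairpin is known to deliver, was listed. With miR-320-5p taken as 0 and 1 count added to each arm, the log2 ratio of 3p to 5p was 8.50, 9.15 and 10.0. Setting miR-320-5p to 0 fixed the sign in every library. The two-sided exact sign-flip test (p = 0.25, n = 3 libraries) therefore cannot show an arm preference. The ratio is also no bound, since it depends on the count added and on whether miR-320-5p was in the authors' database.

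miR-484 was lower and took the opposite order among the libraries. Its mature entry had 255, 193 and 61 counts in replicates 1, 2 and 3, or 293, 192 and 63.1 CPM. Replicate 3 was the lowest here. The mean was 183 ± 115 CPM (SD, n = 3), rank 151 of 604. The 95% intervals ran from 258 to 331, from 166 to 221 and from 48.3 to 81.1 CPM. The hairpin entry followed the same order with 243, 171 and 87 counts, or 493, 279 and 151 CPM of the hairpin counts, and a mean of 308 ± 173 (SD, n = 3), rank 155 of 743. Of all entries with at least 10 counts in every library, 34.9% of the mature and 35.8% of the hairpin entries were lowest in replicate 3.

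**Figure D1:**
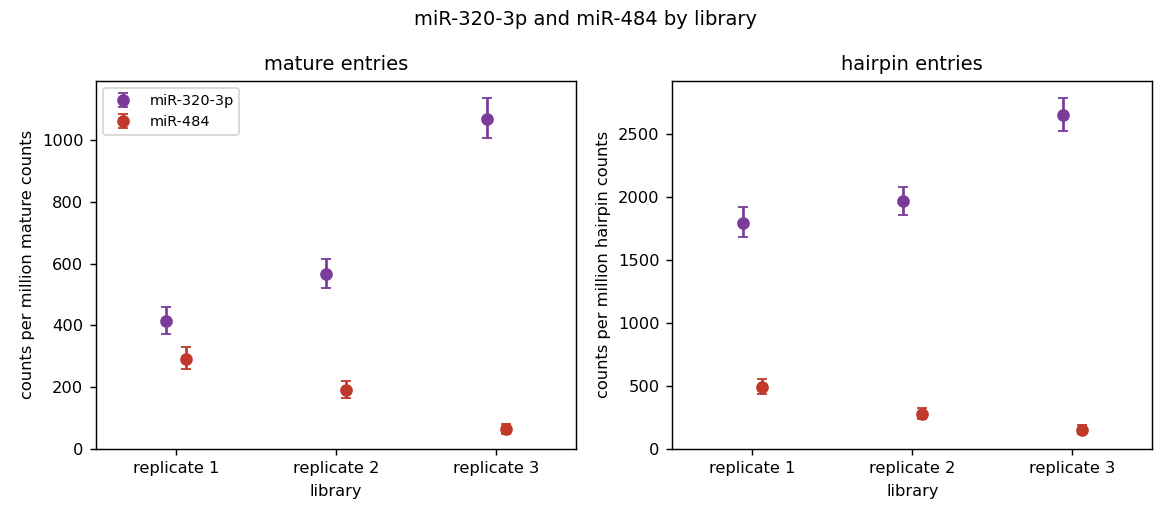
Levels of miR-320-3p and miR-484 in each library, in CPM of the mature (left) and of the hairpin counts (right), with exact 95% counting intervals as bars. miR-320-3p was highest and miR-484 lowest in replicate 3 for both types, with mature levels of 1071 and 63.1.

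miR-320-3p exceeded miR-484 in every library, but by very different factors. The ratio of their mature counts was 1.42 in replicate 1, 2.95 in replicate 2 and 17.0 in replicate 3. The log2 ratio was 2.05 ± 1.84 (SD, n = 3; two-sided exact sign-flip test, p = 0.25), so the mean hardly exceeded the spread between libraries. Of the hairpin counts the ratio was 3.65, 7.05 and 17.6, and the log2 ratio 2.94 ± 1.14 (SD, n = 3; two-sided exact sign-flip test, p = 0.25). Accordingly, miR-320-3p held 58.6%, 74.5% and 93.5% of the mature counts of the noncanonical miRNAs in replicates 1, 2 and 3, and miR-484 held 41.4%, 25.3% and 5.51%. Both members are counted in the same libraries, and a higher share of 1 lowers that of the other by construction. With median-of-ratios size factors, replicate 3 was at 1092 for miR-320-3p and at 64.3 for miR-484, the highest and the lowest of the 3 libraries.

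The mirtron miR-877 was near the limit of detection. miR-877-5p, the arm at the start of the intron, had no mature count in replicates 1 and 2 and 11 in replicate 3, which is 11.4 CPM with a 95% interval from 5.68 to 20.4. Its hairpin entry likewise had no count in replicates 1 and 2 and 36 in replicate 3, or 62.3 CPM of the hairpin counts. Both entries of miR-877-5p were thus found in 1 library only, as were, with at least 10 counts there, 20.2% of all mature and 15.2% of all hairpin entries. miR-877-3p had 2 mature counts in replicate 2 and none in the others, and its hairpin entry had 2, 1 and 2 counts. The ranks of the mature entries were 527 for miR-877-5p and 563 for miR-877-3p. The log2 ratio of 5p to 3p, with 1 count added to each arm, was 0 in replicate 1, -1.58 in replicate 2 and 3.58 in replicate 3 (two-sided exact sign-flip test, p = 1; 3 libraries cannot give less than 0.25). Without replicate 3 its mean was -0.79 in place of 0.67. For miR-1224, only the Rfam family of its precursor was listed, with 22 reads in replicate 1, none in replicate 2 and 1 in replicate 3.

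**Figure D2:**
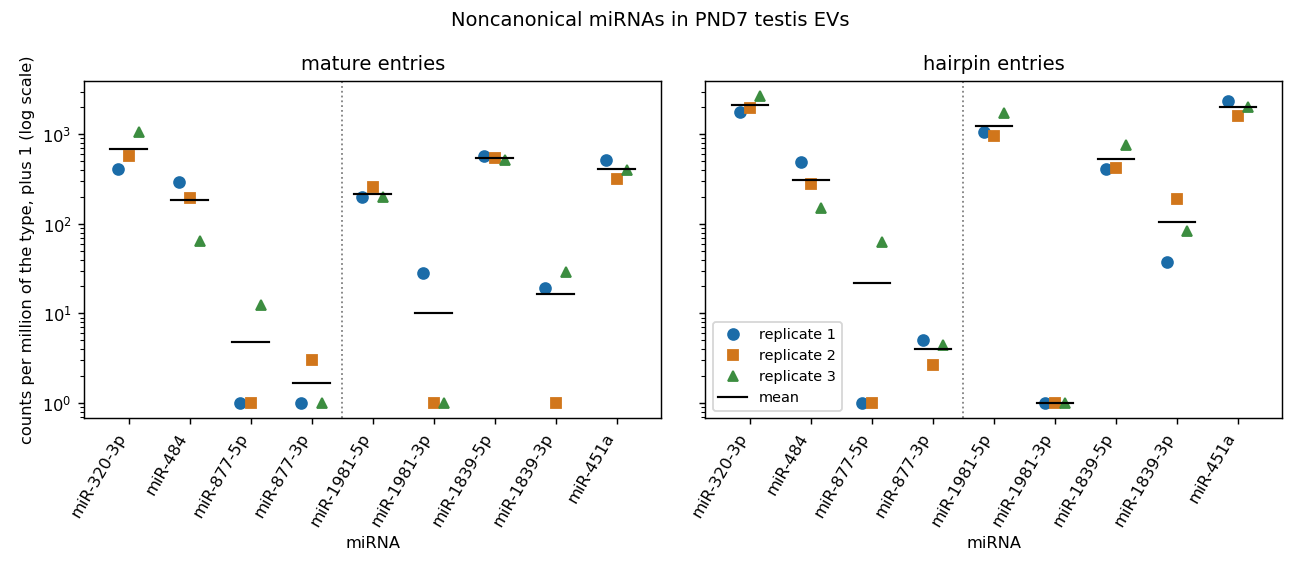
Levels of the noncanonical miRNAs in each library and their means, in CPM of the mature (left) or hairpin (right) counts plus 1, on a log scale. An entry without counts lies at 1. miR-320-3p and miR-484 had counts in every library and miR-877-5p only in replicate 3. Right of the dotted line are other miRNAs with unusual precursors, outside the group.

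The authors list mature and hairpin entries under the same identifier, and the sources used here do not define how reads were divided between them. Mature counts made up 28.9%, 32.1% and 40.3% of the mature and hairpin counts of miR-320-3p in replicates 1, 2 and 3, with a mean of 33.8% ± 5.87 (SD, n = 3). Hairpin counts thus exceeded mature counts in every library, which held for 36.7% of the 395 identifiers with at least 10 counts of both types together in every library. The log2 ratio of mature to hairpin counts was -0.98 ± 0.37 (SD, n = 3; two-sided exact sign-flip test, p = 0.25). For miR-484 the mature percentages were 51.2%, 53.0% and 41.2%, with a mean of 48.5% ± 6.36 (SD, n = 3). Here mature counts were above hairpin counts in replicates 1 and 2 and below them in replicate 3, whereas 35.4% of the 395 identifiers had more mature counts in all 3 libraries. The log2 ratio of -0.087 ± 0.37 was within the spread between libraries (two-sided exact sign-flip test, p = 1, n = 3).

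Over the 395 identifiers the median of the mature percentage was 47.1%, and 37.5% of them lay at or below miR-320-3p and 52.2% at or below miR-484. Both members thus stood in the middle of the range. The mature percentage of miR-484 exceeded that of miR-320-3p by 22.3, 20.9 and 0.912 percentage points in replicates 1, 2 and 3, with a mean of 14.7 ± 12.0 (SD, n = 3; two-sided exact sign-flip test, p = 0.25). In replicate 3 the 95% intervals of both overlapped, at 33.2% to 49.6% for miR-484 and 38.4% to 42.2% for miR-320-3p. For miR-877-5p, 23.4% of the 47 counts in replicate 3 were mature, with a 95% interval from 12.3% to 38.0%.

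**Figure D3:**
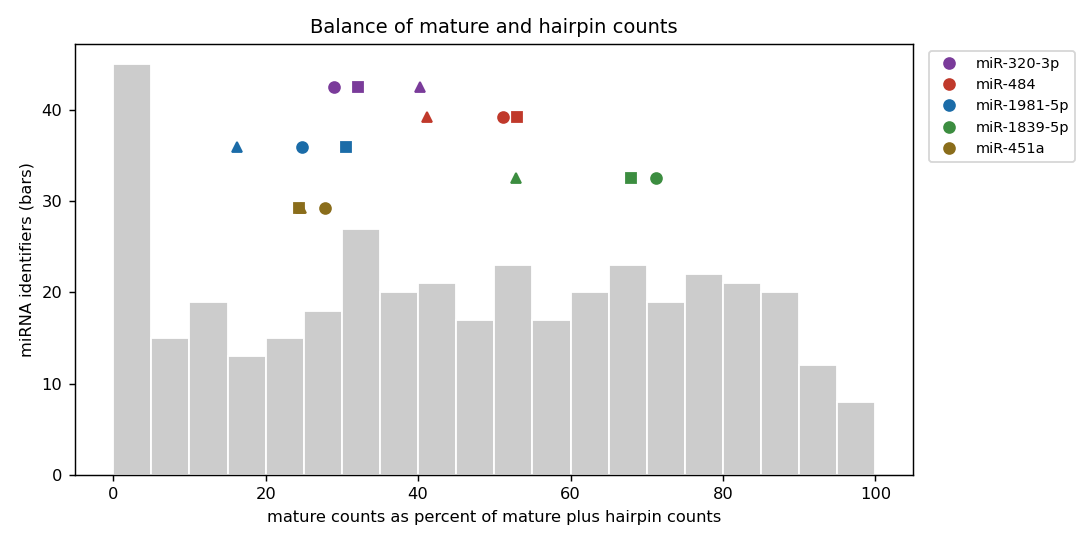
Mature counts as a percentage of mature and hairpin counts, as a histogram of the means of 395 identifiers (bars, number of identifiers). Symbols give the values of named miRNAs with unusual precursors in replicates 1 (circles), 2 (squares) and 3 (triangles). The height of the symbols has no meaning. miR-320-3p lay between 28.9% and 40.3% and miR-484 between 41.2% and 53.0%, inside the range of the other miRNAs.

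The spread between libraries was measured as the highest over the lowest level. For mature entries it was 2.58 for miR-320-3p and 4.64 for miR-484, against a median of 1.72 over the 272 mature entries that reached 10 counts in each library. Both were over 2, as were 40.4% of these entries, and 27.9% of the entries had a spread at least as large as miR-320-3p and 6.99% one at least as large as miR-484. For hairpin entries the spread was 1.48 for miR-320-3p and 3.27 for miR-484, with a median of 1.80 over 324 entries. A spread of 2 or more was found in 43.2% of the hairpin entries, 67.9% had one at least as large as miR-320-3p and 20.4% one at least as large as miR-484. The mature entry of miR-320-3p varied more than its hairpin entry. Without replicate 3, the mature spread fell to 1.36 for miR-320-3p and 1.53 for miR-484, and without replicate 1 that of miR-484 fell to 3.04.

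**Figure D4:**
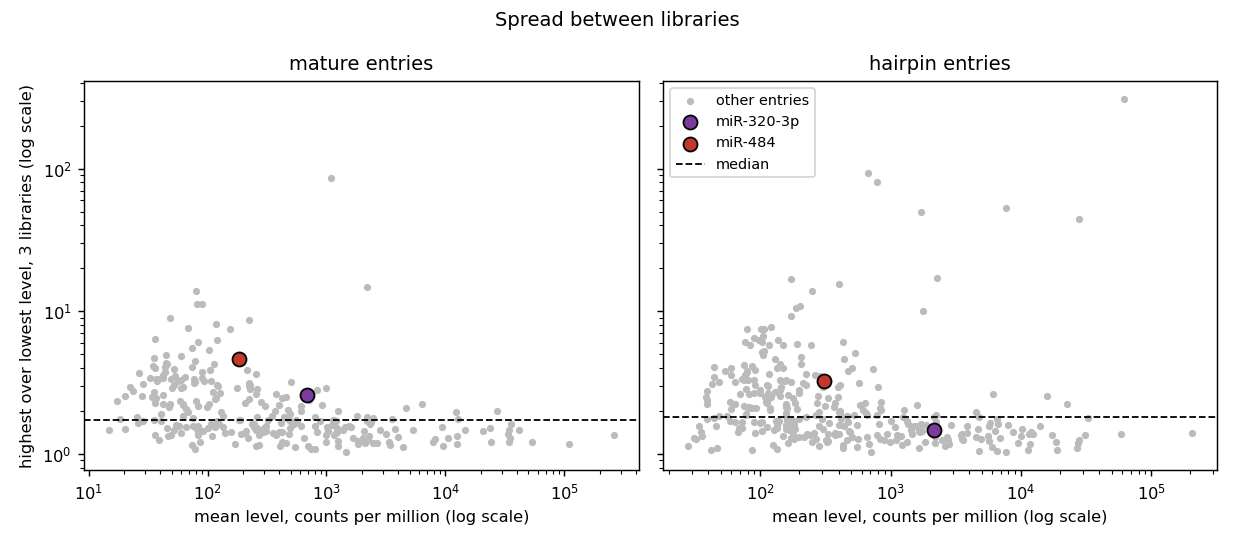
Highest over lowest level of the 3 libraries against the mean level in CPM, both on log scales, for mature (left) and hairpin (right) entries with at least 10 counts in each library. The dashed line is the median, 1.72 for mature and 1.80 for hairpin entries. The mature entries of miR-320-3p (2.58) and miR-484 (4.64) lay above it, and the hairpin entry of miR-320-3p (1.48) below it.

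In the order of mean mature levels, miR-320-3p stood between miR-193b-3p, at 703 ± 46.6 CPM, and miR-434-3p, at 645 ± 81.6 CPM (SD, n = 3 each). Beyond these came miR-449a-5p, a relative of miR-34, at 718 ± 314 CPM and miR-342-3p at 612 ± 199 CPM. These neighbours were chosen for their close means, so differences below the miR-320-3p SD of 344 CPM follow from that choice. miR-484 stood between miR-342-5p, at 183 ± 59.1 CPM, and miR-471-3p, at 176 ± 118 CPM, with miR-139-5p at 188 ± 50.1 and miR-450a-5p at 169 ± 14.5 CPM next to them (SD, n = 3 each). For miR-484, too, the small differences follow from how the neighbours were chosen.

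Likeness of profile was measured as the sum over the 3 libraries of the absolute log2 differences in level, and a small sum means that 2 entries had nearly the same level in each library. Closest to mature miR-320-3p were miR-676-3p with a sum of 1.21, miR-296-5p with 1.25 and miR-342-3p with 1.27. Closest to mature miR-484 were miR-3535 with 1.16, miR-540-3p with 1.19 and miR-423-5p with 1.39. miR-3535 had 278, 153 and 37.2 CPM in replicates 1, 2 and 3 and, like miR-484, was lowest in replicate 3. Among the hairpin entries, miR-25-3p was the closest to miR-320-3p with a sum of 0.18, and miR-465b-5p the closest to miR-484 with 0.84. With 3 libraries such likeness is a description only.

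Other miRNAs with unusual precursors offer a comparison. miR-1981 is a mirtron, and its hairpin covers an intron of the gene that GENCODE names Marc2 exactly. Its 5p arm had 172, 257 and 192 mature counts, or 217 ± 33.2 CPM (SD, n = 3), rank 143. This mirtron was thus detected in all libraries, unlike miR-877-5p. Its mature 5p level stood above that of miR-484 (rank 151) in replicates 2 and 3 and below it in replicate 1. Its hairpin entry had 521, 583 and 994 counts, and its 3p arm had 24 mature counts in replicate 1 alone. No entry was listed for miR-702. miR-1839, whose hairpin overlaps a small Cajal body RNA in the annotation, had 495, 542 and 494 mature counts of its 5p arm, or 539 ± 28.6 CPM (SD, n = 3). miR-451a, which Drosha releases and which Argonaute 2 cuts in place of Dicer, stood at 411 ± 102 CPM (SD, n = 3) and is also 1 of the 3 erythroid markers. The mature levels of miR-1839-5p and miR-1981-5p spread 1.11-fold and 1.29-fold between libraries and that of miR-451a 1.64-fold, against 2.58-fold and 4.64-fold for miR-320-3p and miR-484. Among hairpin entries the order differed, with 1.88-fold for miR-1839-5p and 1.81-fold for miR-1981-5p against 1.48-fold for miR-320-3p. The mature 3p arm of miR-1839 had 16, 0 and 27 counts and so was missing from replicate 2.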

How the data were processed

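Small RNA of PND7 testis EVs was sequenced by the authors on BGISEQ-500 in 3 libraries. They removed low-quality reads and mapped clean reads with Bowtie2 and cmsearch to the genome (mm10 per the submitters' processing notes) and small RNA databases, assigning each read to 1 class with miRBase first. The versions, and the mismatches allowed, are not given in the sources used here, and a shifted or mismatched read may count as hairpin or be lost. The authors deposited whole-number read counts per entry, counts per class and the percent of clean reads per class. A further deposited column restates the count as CPM of clean reads and was not used. The class totals of both kinds of file were equal.

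Counts were scaled to CPM of the mature, or hairpin, counts of their library, and mean and SD were computed over libraries. The labels call the libraries biological replicates and name no batch. Intervals are exact binomial (Clopper-Pearson, 95%). For ratios within libraries, the signs of the 3 log2 values were flipped in all combinations (exact sign-flip permutation test, two-sided). Its smallest p is 0.25, so that no test can pass 0.05. Named were all entries of the group, the entries next in level, the 3 nearest profiles, miRNAs with the same seed and the other miRNAs with unusual precursors listed. The members and lists were chosen with earlier results of these data known, and the ratio of miR-320-3p to miR-484 and the difference of their mature percentages after these values were seen. Positions came from GENCODE vM21 and sequences from RefSeq, which matched 442 of 604 mature entries by name. Software was SciPy 1.17.1, numpy 2.4.6 and pandas 2.3.3 under Python 3.11.15, with matplotlib 3.10.9 for plots.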

Additional observations from a re-analysis of the deposited data

Results flagged for a closer look

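Reads on the Rfam precursor families of the same miRNAs are outside the mature and hairpin entries compared above. They exceeded a fixed floor of 3 counts in every library for 3 of the 4 families and in replicate 1 for mir-1224. The mir-320 family had 781, 1249 and 1248 reads in replicates 1, 2 and 3, and the mir-484 family 95, 132 and 93. The mir-877 family had 20, 31 and 63 reads and so was present in every library, including those without a count on miR-877-5p. The mir-1224 family had 22, 0 and 1 reads, in the same order of libraries. In CPM of the precursor counts, these families stood at 7660 ± 906, 758 ± 115, 264 ± 139 and 64.7 ± 106 (SD, n = 3), in the same order. There was no control library to give a background level.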

How the results depend on the processing

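Scaled to CPM of mature and hairpin counts together, the summed mature level was 547 and the summed hairpin level 918, and in CPM of clean reads they were 31.0 and 52.1, lower by construction. Without each replicate in turn, the summed levels ranged from 733 to 952 and from 2272 to 2583, the mature spread of miR-320-3p from 1.36 to 2.58 and that of miR-484 from 1.53 to 4.64, and the hairpin spread of miR-484 from 1.76 to 3.27, with the lowest value in each spread without replicate 3 (miR-484 hairpin: 1.85 without replicate 1). The log2 ratio of mature to hairpin counts of miR-484 turned from -0.087 to 0.023 with pooled counts and ranged from -0.22 to 0.12, above 0 without replicate 3. The log2 ratio of the arms of miR-877 ranged from -0.79 to 1.79, below 0 without replicate 3. The ratio of capped precursors to mirtrons in pooled counts ranged from 143 to 689 for mature and from 68.8 to 835 for hairpin entries, with the highest value without replicate 3, an alternative chosen after seeing the data. Within libraries its log2 mean ranged from 7.25 to 8.63 and that of miR-320-3p to miR-484 from 1.03 to 2.82 on the log2 scale, with the same sign in each case. For miR-877-5p, the ratio of mature to hairpin counts has no value without replicate 3. No comparison between groups, paired or not, was possible because the series has a single group. The ratios within libraries were paired by library. The low counts of miR-877 limit what can be said of it, and 3 libraries limit every test. Whether depth set these low counts was not tested.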
